A study of Homo sapiens with 4 samples.

Results

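The genes examined were 10 immediate early transcription factor genes, namely JUN, JUNB, JUND, FOS, FOSB, FOSL1, FOSL2, ATF3, EGR1 and MYC. They were chosen by name, and their m6A peaks were taken from the list by gene ID. Of the 10 genes, 8 carried a peak, with 19 of the 20261 peaks in the list. FOS and ATF3 carried none.

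N6-methyladenosine (m6A) was mapped by m6A-seq in MDA-MB-231, an established human cell line of triple negative breast cancer. The design held 2 input libraries and 2 libraries immunoprecipitated (IP) with an antibody to m6A, all from cells named shNS in the library titles, with no drug, time course or second genotype. The treatment field of the IP libraries names YTHDC1, whereas titles and protocol describe the antibody to m6A, which was the reading used. The deposited file is 1 list for the series with no column for any library, so no value has a replicate error, the depth behind a peak is unknown, and no test between genes was made.

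AP-1 is a dimer of basic leucine zipper (bZIP) proteins, made of a JUN family member paired with another JUN, a FOS family or an ATF family member. Growth factors, serum and stress switch many of these genes on within minutes through kinases that act on factors already present in the cell. The mRNAs of such genes are then degraded quickly. EGR1, a zinc finger factor, and MYC, which binds DNA with MAX, belong to the same early response. In basal-like breast cancer cells the FOS family member FOSL1 (FRA-1) is known for its part in invasion and mesenchymal traits. m6A is placed on mRNA by a methyltransferase complex at a short sequence context whose core is often GGAC, and long exons and the region near the stop codon are known to carry much of it.

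Each peak has 1 score, deposited by the authors and taken to be a p-value for enrichment in IP over input, where a smaller score is a stronger peak. The list does not say whether the score is a p-value or an FDR. A score depends on read depth as well as on enrichment and is not a level of methylation. A score listed as 0 is one too small to be held as a stored number, and peaks at 0 have no order among them. A peak is called strong here when its score does not exceed the median of the list, 5.2e-08. Of the 10 genes, 8 carried a peak, 7 carried a strong peak and 2 (JUN and JUND) carried a peak listed at 0. Among all 20039 protein-coding nuclear genes of RefSeq, these shares were 40.8%, 26.6% and 1.98%, genes that the cells do not express included. Genes on the 2 strands differ so much in this list that each gene was set beside genes of its own strand. JUN, JUND and FOSL1 are on the minus strand, and 3 of these 3 had a strong peak, with 2 listed at 0. Of 7758 minus-strand protein-coding genes, 55.6% had a peak, 43.8% a strong peak and 3.96% a peak at 0. The other 7 are on the plus strand, where 5 had a peak, 4 a strong peak and none a peak at 0. Of 8084 plus-strand protein-coding genes, 29.3% had a peak, 12.2% a strong peak and 0.26% a peak at 0.

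**Figure D1:**
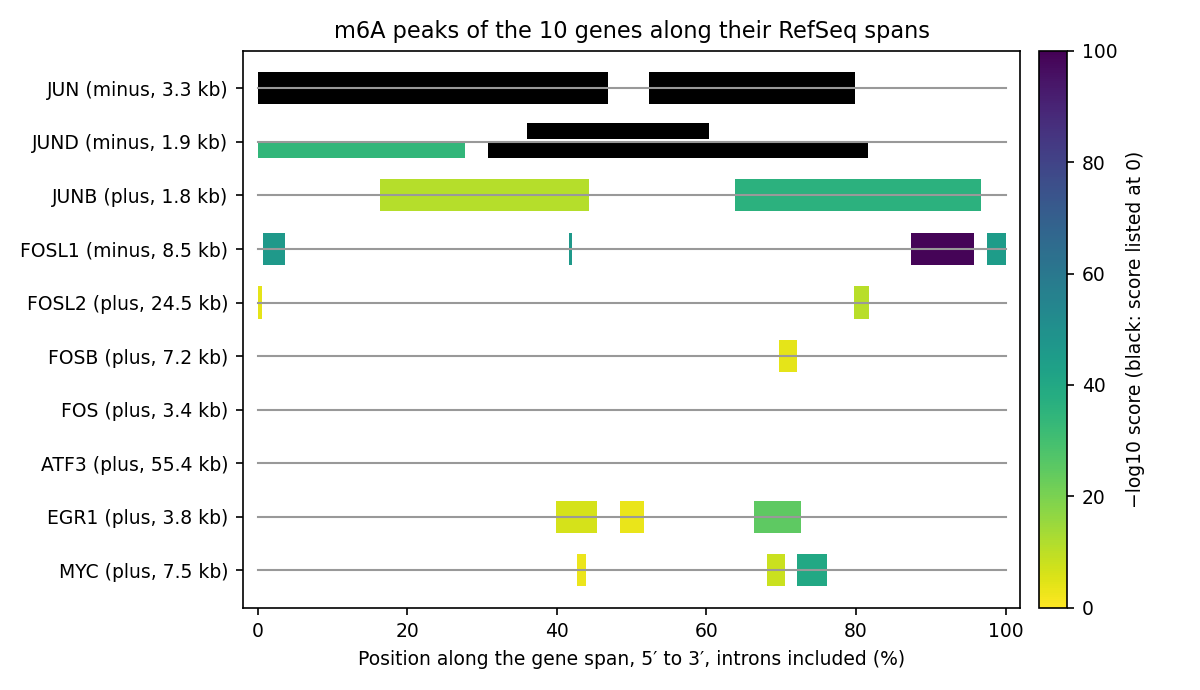
Peaks of the 10 genes along the RefSeq span of each gene, from the 5′ end (0%) to the 3′ end (100%), with introns included and colour giving −log10 score. Black bars are peaks listed at 0, and the 2 overlapping JUND peaks are drawn one above the other. JUN, JUND and JUNB are covered over most of their span, and FOS and ATF3 carry no peak.

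The single-exon genes were the JUN family, whose genes hold no intron, so that the genomic span and the transcript are the same stretch. Their 7 peaks all lay in 1 block, had a median length of 601 bases, and ranged from 471 to 1524 bases. All 7 were strong, and 4 were listed at 0.

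JUN, the founding member of the family and the usual partner of FOS proteins, had 2 peaks (ENSG00000177606, chromosome 1, minus strand, hg38). The first ran from 58782524 to 58784047, was 1524 bases long and was listed at 0. The second ran from 58781448 to 58782344, was 897 bases long and was also listed at 0. They were separated by 179 bases. Together they covered 2421 bases, or 74.3% of the 3257 bases of the gene, and left the last 657 bases free of a peak. A strongest score of 0 was shared with 6.98% of the 5304 minus-strand protein-coding genes in the list, and 3.66% of those genes had at least as many bases under peaks.

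JUND, the family member with the most constant expression in resting cells, had 3 peaks (ENSG00000130522, chromosome 19, minus strand). The first ran from 18281088 to 18281622 and had a score of 1e-34. The second, 980 bases from 18280050 to 18281029, was listed at 0. The third, 471 bases from 18280459 to 18280929, was listed at 0 as well and lay wholly inside the second, so that JUND had 2 separate regions. They covered 1515 of 1929 bases (78.5%) and lay 58 bases apart. At least as many bases under peaks were found for 13.0% of minus-strand genes.

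JUNB, which can act against JUN in proliferating cells, is the single-exon gene on the plus strand and had 2 peaks (ENSG00000171223, chromosome 19). The first ran from 12791786 to 12792296 (511 bases, score 6.3e-12), beginning 300 bases after the 5′ end of the gene. The second ran from 12792655 to 12793255 (601 bases, score 6.3e-37) and stopped 60 bases short of the 3′ end. Together they covered 1112 of 1830 bases (60.8%). Among the 2869 plus-strand protein-coding genes listed, 10.8% had a peak as strong as that of JUNB and 3.49% had as many bases under peaks.

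The share of the span under peaks was set beside that of all short genes, those of at most 5000 bases with a peak. The JUN family genes are themselves among these, so each counts in the shares below. Its median was 9.03% over 306 short plus-strand genes (quartiles 4.83 and 18.8%) and 20.2% over 479 short minus-strand genes (quartiles 9.78 and 34.3%). A share as large as that of JUNB was reached by 0.654% of the short plus-strand genes. Shares as large as those of JUN and JUND were reached by 4.18% and 2.92% of the short minus-strand genes. The share of JUND rests on the whole list, since the earlier part of the list holds only its 471-base peak. Short genes can hold introns, which lower this share, so the JUN family and these genes are not matched in structure. A few other genes known to be intronless, picked after their values were seen, give a closer view. The small GTPase gene RHOB (38.1% of its span), the bZIP genes CEBPB (45.2%) and CEBPD (57.2%), and the early response gene IER5 (25.5%) all had a smaller share than the 3 JUN family genes.

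The first peaks of JUN and JUND began, to the base, at the transcript start given by RefSeq, and a peak of FOSL2 covered the start as well. Reads were aligned to transcript annotations, so the annotation can set a peak border at a start or end. Such a match is therefore no finding about the peak. The letters around these starts are shown because the peak borders coincide with them. Capitals mark the first 20 transcribed bases, which lie under the peak, and lower case marks the 10 bases before them (RefSeq, GRCh38.p14, 5′ to 3′).
JUN, minus strand, chr1:58784028-58784057: ctggataaggGCTCAGAGTTGCACTGAGTG
JUND, minus strand, chr19:18281603-18281632: ggcgcggcgcAGGAGCCGCCGCCAGTGGAG
FOSL2, plus strand, chr2:28392848-28392877: tcgtgccattGTAGTGACTCATCTCGGGCA
None of these 3 held GGAC on the transcribed strand within its first 50 transcribed bases. The peaks of JUN, JUND and FOSL2 hold 1524, 535 and 151 spliced bases. Beyond the first 50 transcribed bases they were not searched, so their content of GGAC is unknown. Among all 35116 promoter windows in the RefSeq table, 18.9% held it there, and 33.5% held it on either strand. JUNB and FOSB held it, but no peak of theirs reached these bases. The FOSL2 letters include TGACTCA, the DNA element that AP-1 binds. Searched on both strands over 250 bases before to 50 bases after the start, it was present for 1 of the 8 genes with an entry and in 4.95% of all windows. The related element TGACGTCA, which ATF and CREB proteins bind, was present for JUND alone among these 8 and in 1.85% of all windows. These are matches of letters only.

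The 7 multi-exon genes had 12 peaks on 5 genes. Their median peak length was 210 bases and the range 91 to 720 bases. Of the 12, 7 were strong and none was listed at 0. Of the 12, 2 were given as 2 blocks, 1 in FOSL1 and 1 in FOSL2, against 17.9% of all peaks in the list. Genes without an intron cannot have such peaks, so this does not compare the classes.

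FOSL1 had the smallest score of the FOS family, a ranking made across strands. It was the one multi-exon gene with peaks on the minus strand (ENSG00000175592, chromosome 11). Its first peak ran over 2 blocks from 65896980 to 65900483, with 270 spliced bases in blocks of 243 and 27 bases and 3234 bases between them (score 5e-47). It began 62 bases after the 5′ end of the gene. The second, 720 bases from 65892408 to 65893127, was the strongest (1.3e-99) and stopped 359 bases short of the 3′ end. The third, 211 bases from 65892049 to 65892259, ended exactly at the 3′ end of the RefSeq span (5e-46), a border that the annotation can set. Of the 1201 bases under peaks in FOSL1, all but 270 lay near its 3′ end. A peak at least as strong as its best was found for 25.7% of minus-strand genes, and as many bases under peaks for 20.7%.

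FOSL2 (FRA-2), a close relative of FOSL1, had 2 peaks (ENSG00000075426, chromosome 2, plus strand). The peak at the start, 28392825 to 28392996, had 151 spliced bases in blocks of 12 and 139 bases, 21 bases apart, and a score of 0.0001. It began 33 bases before the RefSeq start, and its second block began at that start. The other, 28412373 to 28412853, was 481 bases long with a score of 1.6e-11 and lay 4464 bases before the 3′ end. Among listed plus-strand genes, 29.2% had a peak at least as strong, beside 25.7% of minus-strand genes for FOSL1. FOSB, an AP-1 member known for its role in neurons, had 1 peak of 180 bases from 45473000 to 45473179 with a score of 0.0001 (ENSG00000125740, chromosome 19, plus strand), and it was the only gene with a peak that had no strong one. A peak at least as strong as that of FOSB was found for 72.4% of listed plus-strand genes. FOS, the FOS family member most used as a marker of acute stimulation, had no peak on its 3403-base span on chromosome 14. ATF3, a stress-induced partner of JUN proteins, had no peak on its 55371-base span on chromosome 1. Both are on the plus strand. No expression value is given by the list, so a gene without a peak may be unmethylated, weakly expressed or below detection.

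EGR1, which drives growth and differentiation genes after stimulation, had 3 peaks (ENSG00000120738, chromosome 5, plus strand). They ran from 138467003 to 138467212 (210 bases, score 3.8e-07), from 138467332 to 138467451 (120 bases, 0.00038) and from 138468019 to 138468258 (240 bases, 1.6e-25). The strongest was the one nearest to the 3′ end, and it lay 1045 bases before that end. The peaks covered 14.9% of the 3825-base span of EGR1, which includes an intron. A peak at least as strong as its best was found for 14.6% of listed plus-strand genes.

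MYC, a driver of cell growth and of ribosome and nucleotide synthesis, also had 3 peaks (ENSG00000136997, chromosome 8, plus strand). They ran from 127738639 to 127738729 (91 bases, score 0.0011), from 127740555 to 127740734 (180 bases, 1.4e-08) and from 127740854 to 127741154 (301 bases, 1e-40). The last of these was the strongest peak of the plus-strand genes examined, 1797 bases before the 3′ end. Of plus-strand genes in the list, 9.93% had a peak at least this strong. The list runs through the chromosomes and then begins anew at chromosome 1, and all 3 MYC peaks came from this later part, as did 2 of the 3 JUND peaks. That part held 3.68% of all peaks and 26.3% of the 19 peaks described here. With the earlier part alone, MYC had no peak, 7 of the 10 genes had one, and JUND kept a single peak of 471 bases, listed at 0.

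**Figure D2:**
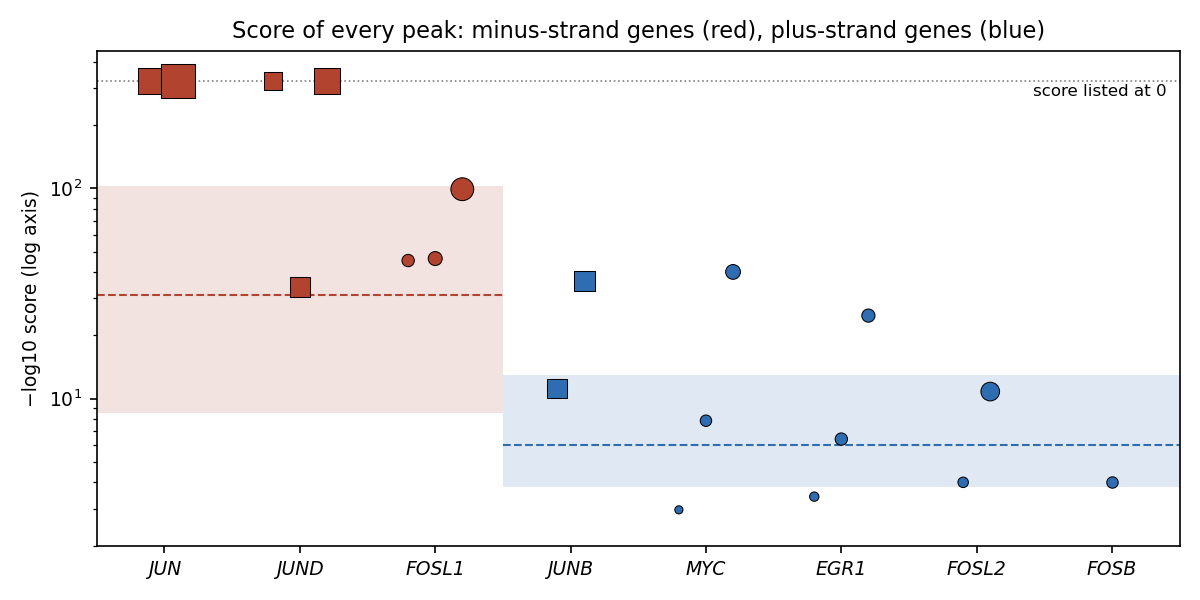
Score of every peak of the 8 genes, as −log10 on a log axis, with marker area in proportion to spliced peak length, squares for single-exon and circles for multi-exon genes. Dashed lines and bands give the median and quartiles of the strongest score over 5304 minus-strand (red) and 2869 plus-strand (blue) genes, and the dotted line holds the peaks listed at 0. The strongest peaks of JUNB, MYC and EGR1 lie above the plus-strand band, and FOSB lies low in it.

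Single-exon and multi-exon genes were then set side by side. The 3 single-exon genes had 1112 to 2421 bases under peaks (median 1515) and the 5 multi-exon genes with a peak had 180 to 1201 (median 572). FOSL1, with 1201 bases, lay above JUNB, with 1112, so the ranges overlapped. The strand divides the same genes in much the same way. JUN, JUND and FOSL1, on the minus strand, had 1201 to 2421 bases under peaks, and the 5 plus-strand genes had 180 to 1112. These ranges did not overlap with the whole list. With the earlier part of the list alone they did, since JUND then had 471 bases, fewer than JUNB. Strongest scores did not overlap between the strands, running from 0 to 1.3e-99 on the minus strand and from 1e-40 to 0.0001 on the plus strand. In the whole list the median over protein-coding genes was 7.9e-32 with 599 bases under peaks on the minus strand, and 1e-06 with 241 bases on the plus strand.

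Within a strand the classes could be compared only over very few genes. On the minus strand, JUN and JUND had more bases under peaks (2421 and 1515) and smaller scores (both 0) than FOSL1 (1201, 1.3e-99). On the plus strand, JUNB had 1112 bases against 180 to 632 in the 4 multi-exon genes, and its shortest peak, 511 bases, was longer than the longest of theirs, 481 bases in FOSL2. Its strongest score (6.3e-37) was weaker than that of MYC (1e-40) and stronger than those of EGR1 (1.6e-25), FOSL2 (1.6e-11) and FOSB (0.0001). Peak lengths were not separated in this way on the minus strand, where the 720-base peak of FOSL1 was longer than JUND peaks of 535 and 471 bases. With the whole list, single-exon genes thus had the larger covered length on either strand. Peak lengths and the order of scores did not divide the classes on both. The covered length on the minus strand depends on the later part of the list. With the earlier part alone, JUND kept only its 471-base peak, which is less than the 1201 bases of FOSL1. With 1 or 2 single-exon genes a strand and no replicates, the difference between the classes was not tested.

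**Figure D3:**
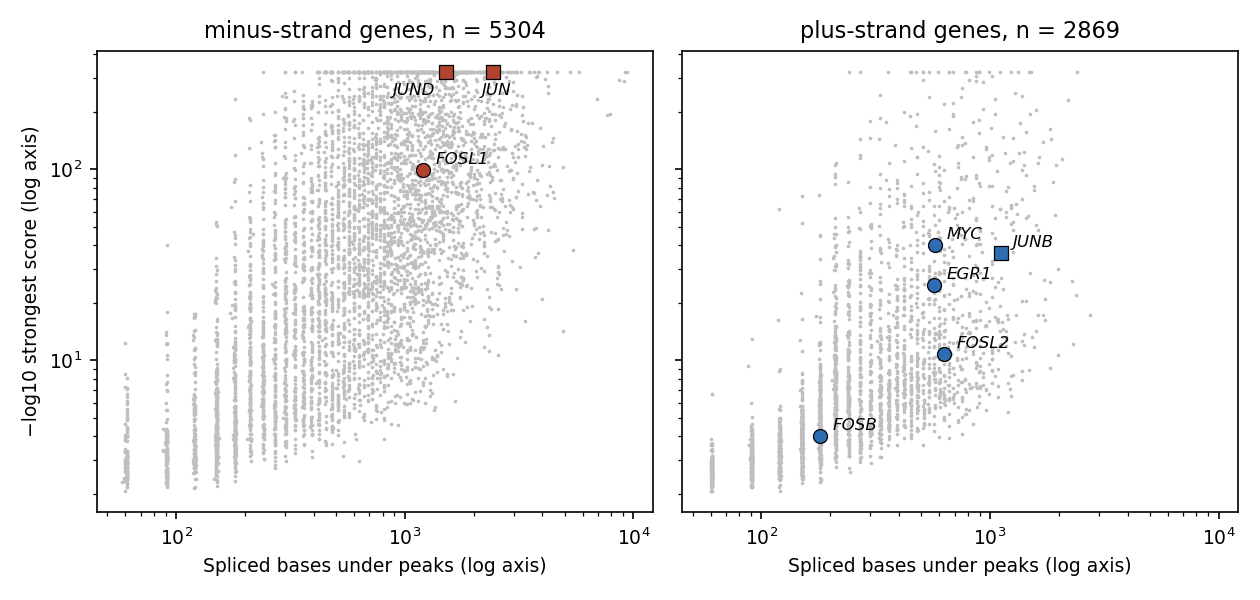
Strongest −log10 score of a gene against its spliced bases under peaks, both on log axes, for listed protein-coding genes on each strand (grey), with single-exon genes as squares and multi-exon genes as circles. JUN and JUND lie on the line of genes listed at 0, and JUNB has more bases under peaks than the other 4 plus-strand genes marked.

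None of the 19 peaks shared a base with a peak on the opposite strand. The nearest opposite-strand peak, 413 bases beyond the last FOSL1 peak, was one of CCDC85B on the plus strand, from 65891373 to 65891635 (score 2.5e-88).

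Genes that act with these factors were examined as lists, each without the 10 genes above. Among 24 AP-1 partner and related bZIP genes, 19 had a peak, 15 of them a strong one. Among those listed, the strongest −log10 score had a median of 15.1 for plus-strand and 111 for minus-strand genes, beside 6.0 and 31.1 over all listed protein-coding genes. The strongest were CEBPD, an acute phase regulator, and DDIT3, the stress factor CHOP, both listed at 0 on the minus strand, and NFE2L1, a regulator of proteasome genes, at 1e-240 on the plus strand. JDP2, which pairs with JUN and represses AP-1 sites, had 1 peak (6.3e-64). BATF, ATF1, ATF2, CREM and MAFF had none.

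Among 27 other immediate early genes, 20 had a peak and 14 a strong peak (median −log10 score 23.7 on the plus and 157 on the minus strand). Over all listed protein-coding genes the medians were 6.0 and 31.1. The anti-apoptotic gene MCL1, IER5L and the kinase gene PLK2 were listed at 0, as was CCN2, a matrix protein gene induced by TGF-β. ZFP36L1 (1e-286) and ZFP36L2 (1e-267), whose proteins bind AU-rich elements and promote decay of early response mRNAs, followed. All 6 of these are on the minus strand, and IER5L and CCN2 each had a peak that shared bases with one on the other strand. The EGR1 relatives EGR2 (3.5e-07) and EGR3 (2.3e-05), both on the minus strand, had weaker peaks than EGR1 on the plus strand, and EGR4 had none.

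Of 20 genes upstream of the early response, 14 had a peak and 9 a strong peak (median −log10 score 9.87 on the plus and 18.1 on the minus strand). The plus-strand median was above and the minus-strand median below those over all listed protein-coding genes (6.0 and 31.1). The serum response factor gene SRF had 1 peak (4e-24). Its coactivator MRTFA (1e-200), and its ETS partners ELK4 (1e-117) and ELK1 (1.6e-22) had peaks too, as did RPS6KA3 (2.5e-30), a kinase activated by ERK. The kinase gene MAPK3 had 1 peak (5.5e-09), and the JNK gene MAPK8 and the p38 gene MAPK14 had no peak.

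In the network of MYC and its dimer partner MAX, 10 of 14 genes had a peak and 8 a strong peak (median −log10 score 5.41 on the plus and 91.2 on the minus strand). These 8 are all on the minus strand. The plus-strand median was below and the minus-strand median above those over all listed protein-coding genes (6.0 and 31.1). FBXW7, which targets MYC and JUN proteins for degradation, had the smallest score (1e-182), followed by ZBTB17 (1e-140), the MIZ-1 gene, and the MAX partner MNT (1e-122). MAX itself had 4 peaks (7.9e-59), and MYCN and MXD1 had none. Among 8 corepressors and regulators of early factors, FBXW7 included, 7 had a peak and 3 a strong peak (median −log10 score 5.01 on the plus and 17.7 on the minus strand). Both medians were below those over all listed protein-coding genes. DET1, part of a ubiquitin ligase that acts on JUN, had 3 peaks (1e-31). The EGR1 corepressor NAB2 (1.6e-10) was stronger than NAB1 (9.8e-06), both on the plus strand. Shares with a peak were from 70.0 to 87.5% in these lists, near the 8 of 10 of the genes described here. By strand, 29.3% of plus-strand and 55.6% of minus-strand protein-coding genes had a peak, and 12.2% and 43.8% a strong peak. Genes that the cells do not express are included there, and the lists were not matched by strand.

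**Figure D4:**
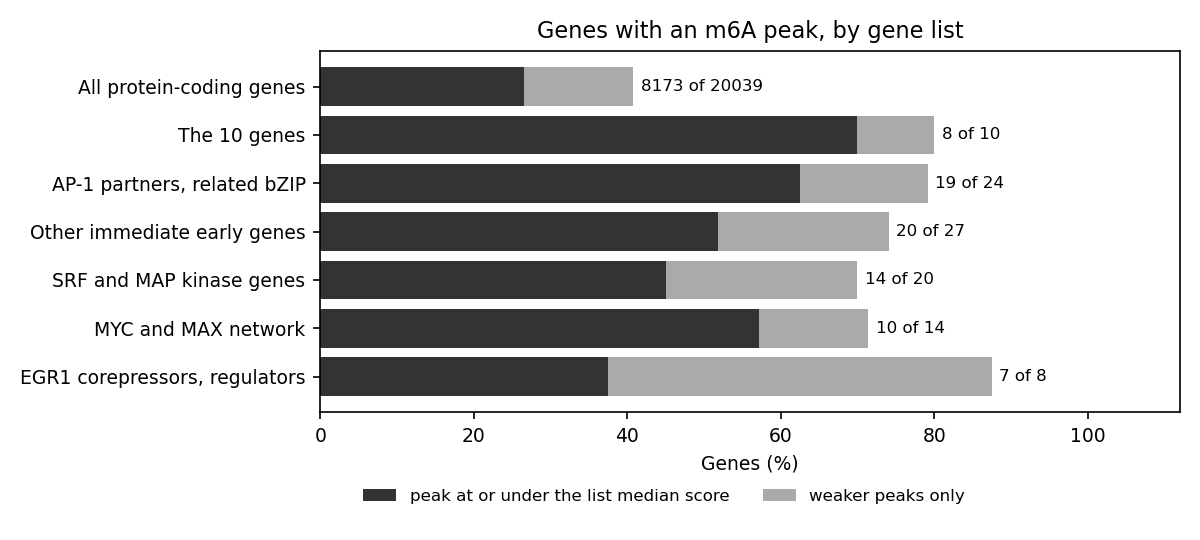
Percent of genes with an m6A peak in each list, split into genes with a strong peak (dark, not above the list median score) and genes with weaker peaks only (grey), with counts beside the bars. The 10 genes (8 of 10) lie within the range of the related lists, and all of these lie above the 40.8% of all protein-coding genes. By strand that share was 29.3% (plus) and 55.6% (minus), and the lists were not matched by strand.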

How the data were processed

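The single deposited table is a list of m6A peaks in BED format. Per the study's methods, the authors aligned reads to GENCODE v33 annotations with STAR, called peaks with exomePeak at default settings, and filtered them on fold enrichment and FDR. How the libraries were combined is not given in the sources used here. The submitters' processing notes name hg38. The deposited score was read as a p-value, and a score of 0 was placed at a −log10 of 323. No read counts are given, so depth and counting error are unknown. Libraries were grouped by title.

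Gene IDs without version were matched to symbols (10103 of 10140). RefSeq spans (GRCh38.p14) were found for 10 of 10 genes and promoter windows for 8. An exon map was not used here, so the single-exon class is taken from general knowledge and UTRs were not assigned. Strand shares rest on genes with a promoter window. Shares of listed same-strand genes count the gene itself. Values were computed with pandas 2.3.3, and overlap and merging functions were tested on simulated data. Overlap means at least 1 shared base.

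The genes and lists were chosen with earlier results of these data known. Named were all 10 genes, and from each list the 3 with the smallest score, genes with a direct link to one of the 10, and examples without a peak, the last 2 kinds picked after values were seen. Of the cell line markers looked up, VIM and ERBB2 had a peak, and CD44, AXL, ESR1, PGR, CDH1 and EPCAM had none. A peak list cannot show expression, so this does not check the cell line. Alternatives were a restriction to peaks at or under the median score, merging, removal of peaks that overlap the opposite strand, and use of the earlier part of the list only.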

Additional observations from a re-analysis of the deposited data

How the results depend on the processing

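No paired analysis was possible because no library has a value of its own in the deposited list, which leaves nothing to block by replicate and no replicate to leave out. Merging, removal of peaks overlapping the opposite strand and use of the earlier part of the list only each kept all 11 counts and medians within 1.5 times. Of these, the median strongest score of single-exon genes sat at the imposed ceiling of 323 in every setting and cannot show stability, and removal of overlaps could not alter the 10 genes, since none of their peaks overlaps the opposite strand. Medians were compared as −log10 scores, where a small ratio can hide a large change in the score itself. With the earlier part only, the median of multi-exon genes went from 24.8 to 17.8 on that scale. Bases under peaks and shares of span were not among the 11 values. With the earlier part only, JUND went from 1515 to 471 bases under peaks, fewer than the 1201 of FOSL1. The larger covered length of single-exon genes on the minus strand was therefore not kept for JUND. Restriction to peaks at or under the median score kept 9 of 11. It left 9 of 14 genes upstream of the early response and 3 of 7 corepressors and regulators, and by construction it removes weak peaks. Under it the 10 genes kept 14 of 19 peaks, on 7 genes, FOSB being lost. The earlier part also gave 14 peaks on 7 genes, MYC being lost. Added after the data were seen, a span limit of 10000 bases lowered the median covered share of short genes to 5.76% (plus) and 11.8% (minus). Since depth is unknown, the absence of a peak in FOS and ATF3 cannot be read further.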

Other observations

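The list restarts its chromosomes after 19516 peaks, and the second part held 745 peaks on 306 genes. Of these genes, 169 also had peaks in the first part, as JUND did, and 137 had peaks in the second part only, as MYC did. The file does not say how the parts differ. Among the JUND peaks, the one in the first part (471 bases) lay within one of the second part (980 bases), and both were listed at 0.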
